A study of Mus musculus with 4 samples.

Results

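The genes described here are ones that Wnt/beta-catenin signalling switches on, and several of them feed back on the pathway. They were followed in mouse embryos labelled as null for the nucleoredoxin gene and in wild-type embryos. The 10 members are Axin2, Nkd1, Apcdd1, Dkk1, Wif1, Lef1, Tcf7, Sp5, Ephb2 and Ephb3, and they were taken by the gene name printed for each probe in the scanner files. They had 16 probes of 41174 gene probes on the array. Probes that both arrays of a stage read well above background in the same genotype were kept, as 15 of the 16 were, and the kept probes carried 17277 gene names in all. In all, 5 members (Axin2, Nkd1, Wif1, Sp5 and Ephb3) had 1 probe, and the other 5 had several. The left-out probe, A_52_P333110 of Lef1, was not well above background in any channel. RNA came from E11.5 and E9.5 C57BL/6J embryos of the genotypes labelled NRX -/- (called Nxn-null here, and KD in the sample titles) and NRX +/+ (wild type). Each stage had 2 two-colour Agilent arrays with the dyes exchanged, with Nxn-null RNA in Cy5 on replicate 1 and in Cy3 on replicate 2, and stage-matched wild-type RNA in the opposite channel. The labels give neither the number of embryos, nor the part of the gene that is disrupted, nor whether the 2 arrays of a stage hold separate extracts, so the spread between arrays may be technical only.

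When a Wnt ligand binds its Frizzled and LRP receptors, beta-catenin escapes destruction, enters the nucleus and activates genes through transcription factors of the TCF/LEF family. Many of these genes encode brakes on the pathway, so that their transcripts serve as readouts of its activity. In the midgestation embryo such readouts mark the tail bud and presomitic mesoderm, limb buds, neural crest and parts of the brain and spinal cord. Nucleoredoxin is a thioredoxin-related protein that binds Dishevelled, a transducer between the receptors and beta-catenin.

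All 4 arrays were on 1 slide and in 1 scan, and between 48.2% and 70.3% of gene spots per channel were well above background, with 0 to 7 saturated spots per array. The targeted gene itself, on its brighter probe, stood at 39.8% of the wild-type level at E11.5 and 50.5% at E9.5. Markers of whole-embryo tissues (neural, somite, heart, limb and endothelium) were well above background for 10 of 10 genes in Nxn-null RNA at both stages. In wild-type RNA they were so for 9 and 10 of 10 at E11.5 and E9.5. Of these 10, 0 were higher and 1 lower in Nxn-null RNA at E11.5, and 2 higher and 4 lower at E9.5. The shares over all probes were 3.13% higher and 5.25% lower at E11.5, and 8.69% and 13.3% at E9.5. The summed linear intensity of these 10 at E11.5 was 42270 to 42450 in Nxn-null and 40980 to 41840 in wild-type RNA. At E9.5 it was 27950 to 29180 and 33310 to 33900. At E9.5, 9 of 10 markers of yolk sac endoderm were lower in Nxn-null RNA, and their summed linear intensity ranged from 14980 to 18690 in Nxn-null RNA, against 160500 to 162100 in wild-type RNA; at E11.5 the sums were 77660 to 78000 and 76690 to 85250. Markers of primitive red cells were lower for 7 of 8 genes at each stage, with sums of 242200 to 327800 in Nxn-null and 648800 to 703000 in wild-type RNA at E11.5, and 223500 to 256700 and 401000 to 445800 at E9.5. Of the placenta and decidua markers, 3 of 6 were measurable, and they summed to 827 to 872 in Nxn-null and 850 to 903 in wild-type RNA at E11.5, and to 2169 to 2438 and 1119 to 1126 at E9.5. At E11.5 Xist, the X-inactivation transcript of female cells, had a log2 ratio of 5.83, although wild-type RNA gave it only background-level signal. The 3 Y-linked genes measured had ratios of -1.36 to -3.59, with only background-level signal in Nxn-null RNA. The size of these E11.5 folds is therefore uncertain. At E9.5 Xist was at -0.43 and the Y-linked genes between -0.01 and 0.09. For the Y-linked genes 0 channels cleared background at E9.5, so their ratios there do not show that these transcripts were present or equal. The part of these differences in the values of the 10 members was not tested, and in whole-embryo RNA fewer cells of a type and less RNA per cell cannot be told apart.

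The first comparison asked whether transcripts of the Wnt targets depended on nucleoredoxin, as the log2 ratio of Nxn-null over wild-type RNA. The differences were small in every member. The largest mean ratio of any of the 15 probes was 0.32 in absolute value, and 0 probes reached a 2-fold mean ratio at either stage. Small ratios were general on these arrays. The median absolute mean ratio was 0.083 at E11.5 and 0.106 at E9.5 for the members, against 0.064 and 0.092 over all kept probes. Called means a Benjamini-Hochberg adjusted p under 0.05 over 24985 probes in the limma fit to all 4 arrays. Each member is represented by its brightest probe. At E11.5, Nkd1 was higher in Nxn-null RNA and 0 members were lower. That was 1 of the 15 member probes, where 3.13% of all probes were called higher and 5.25% lower. At an unadjusted limma p under 0.05, 2 of the 10 members were higher and 1 lower, beside 2091 and 2682 of all 24985 probes. At E9.5, Apcdd1, Ephb2 and Wif1 were higher and 0 members lower. That was 3 of the 15 probes, where 8.69% of all probes were called higher and 13.3% lower. At an unadjusted limma p under 0.05, 4 of the 10 members were higher and 0 lower, beside 3803 and 4581 of all 24985 probes. The median ratio of the 10 members was 0.08 at E11.5 and 0.01 at E9.5, against 0.01 and 0.00435 over all probes. These calls rest on the dye term of the fit, which removes the part of the gap between dye-swapped arrays that both stages share. Without it, or with the array-wise Feature Extraction log ratio, with median centring in place of loess or with any 1 array left out, 0 of the 10 members were called at either stage.

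Averaged over the stages, 0 of the 10 members differed between the genotypes. Their smallest adjusted p was 0.679, 0 members had an unadjusted p under 0.05, and 0% of all probes were called higher and 0% lower, although 1889 probes had an unadjusted p under 0.05. The ratio differed between the stages for Apcdd1, which was lower at E11.5 than at E9.5, and for Sp5, which was higher at E11.5 than at E9.5. Each was 1 of the 15 member probes, where 4.55% of all probes were called lower and 6.92% higher in that test.

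**Figure D1:**
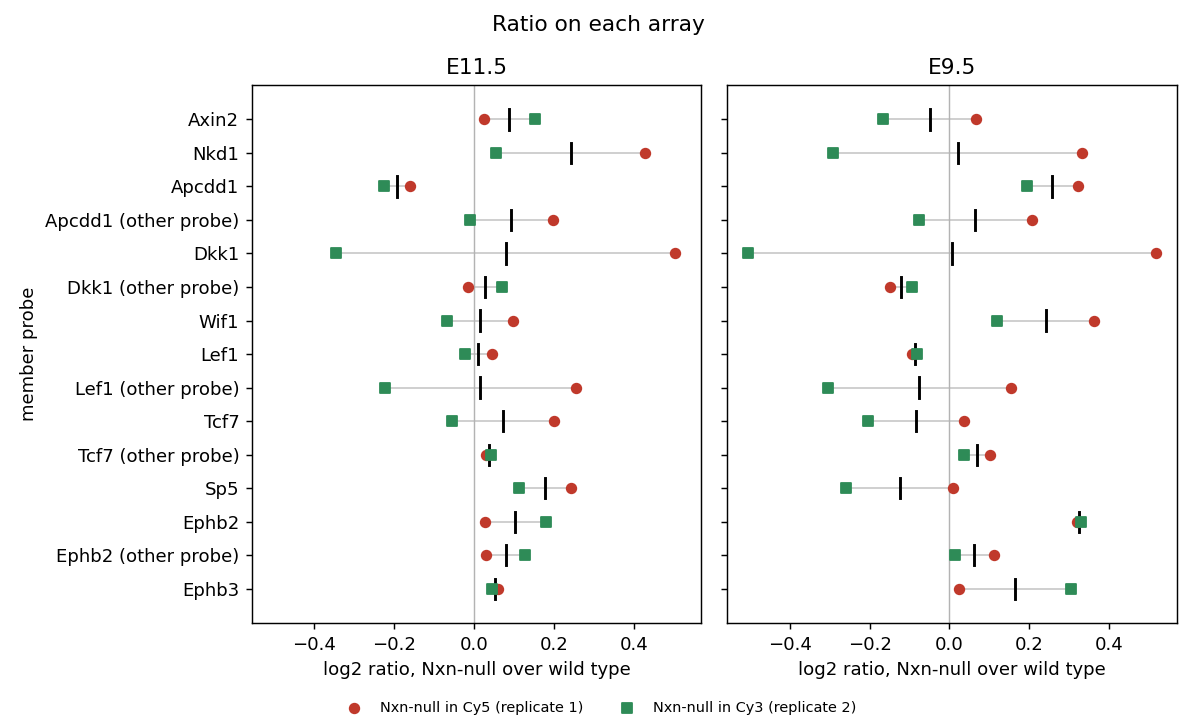
Log2 ratio of Nxn-null over wild-type RNA (horizontal axis) for the 15 member probes at E11.5 (left) and E9.5 (right); circles are the arrays with Nxn-null RNA in Cy5, squares those with it in Cy3, and black bars their means (n = 2 arrays). The largest mean is 0.32 in absolute value, and for Dkk1, Nkd1 and the other Lef1 probe the arrays lie farther apart than the mean lies from 0.

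The second comparison followed the same genes from E9.5 to E11.5 within each genotype, as the difference of normalized log2 intensity between arrays of the same dye. Here the changes were larger, and every gene called in both genotypes went the same way in both. In Nxn-null RNA, Wif1, Ephb3 and Ephb2 were higher at E11.5 than at E9.5, and Tcf7, Sp5, Dkk1 and Axin2 were lower. In wild-type RNA the same 7 genes were called in the same directions, and Apcdd1 was higher as well. Counted over probes, 5 of 15 were called higher and 6 lower in each genotype. A large part of all probes changed too, with 23.6% called higher and 26.5% lower in Nxn-null RNA and 24.0% higher and 30.2% lower in wild-type RNA. The median change of the 10 members was 0.02 in Nxn-null and -0.14 in wild-type RNA, against -0.02 and -0.05 over all probes. Lef1 and Nkd1 were called in neither genotype. The calls for Wif1, Ephb3, Tcf7 and Sp5 held in both genotypes under every alternative that was run. The RNAs of the 2 stages also differed in other ways. Xist changed by -5.72 in wild-type and 0.54 in Nxn-null RNA, the first of uncertain size because its wild-type signal at E11.5 was at background level. Of 10 yolk sac endoderm markers, 9 were lower at E11.5 in wild-type RNA, against 2 lower and 5 higher in Nxn-null RNA. The part of these differences in the stage changes of the members was not tested.

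**Figure D2:**
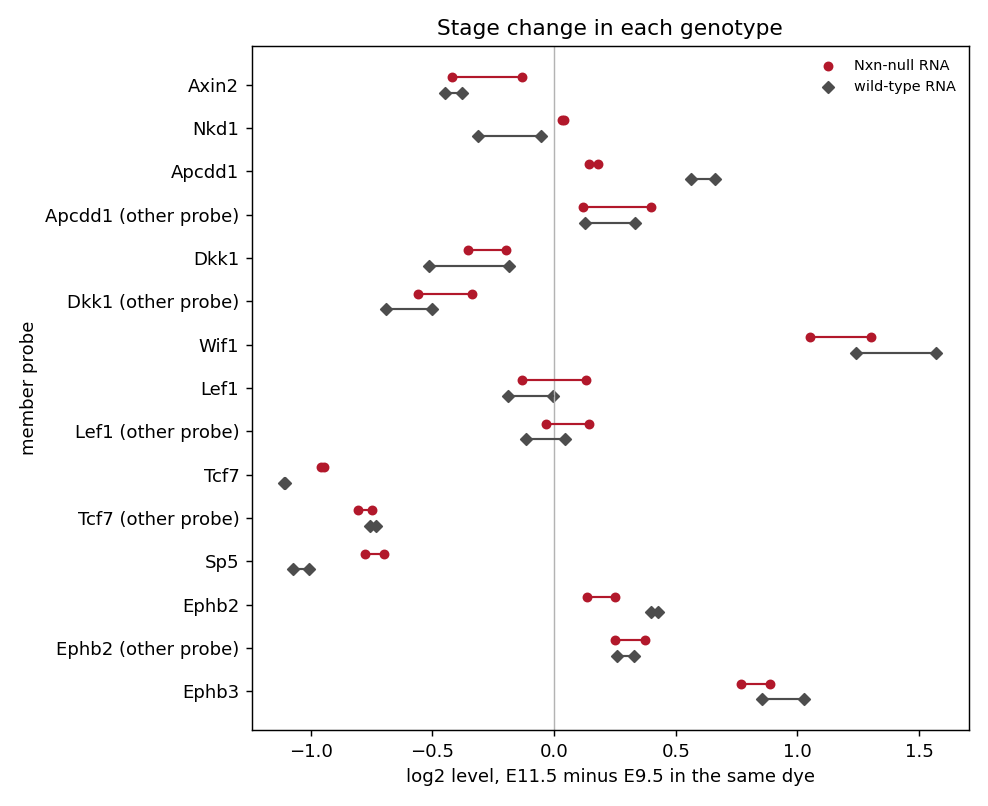
Change of normalized log2 intensity, E11.5 minus E9.5 in the same dye (horizontal axis), for the 15 member probes in Nxn-null RNA (circles, upper of each pair) and wild-type RNA (diamonds); each symbol is 1 of 2 same-dye differences. Wif1 and Ephb3 lie far to the right and Tcf7 and Sp5 far to the left in both genotypes, between 1.57 and -1.11.

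Among the transcription factors, Tcf7, which encodes the TCF/LEF family member TCF1, fell the most in both genotypes. Its brightest probe, A_52_P244702, had normalized log2 intensities of 8.90 and 8.82 in Nxn-null and 8.70 and 8.87 in wild-type RNA at E11.5, and 9.84 and 9.77 in Nxn-null and 9.81 and 9.98 in wild-type RNA at E9.5 (replicates 1 and 2 throughout). The E11.5 values lay below all E9.5 values, and the genotypes overlapped at each stage. The stage change was -0.95 ± 0.06 in Nxn-null RNA and -1.11 ± 0.06 in wild-type RNA (SE from limma; adjusted p = 5.76e-05 and 2.45e-05), that is 1.93-fold and 2.15-fold lower at E11.5. The other Tcf7 probe, A_52_P244711, which was well above background in 7 of 8 channels, gave -0.78 and -0.74. The genotype ratio was 0.20 and -0.06 at E11.5 and 0.04 and -0.20 at E9.5, so it changed sign between the dye-swapped arrays of each stage, and neither mean (0.07 and -0.08) passed the test (limma adjusted p = 0.609 and 0.386). On the other probe all 4 ratios were between 0.03 and 0.10.

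Lef1, the partner of beta-catenin most used as a readout beside Axin2, did not pass any of the tests. Its brightest probe, A_51_P501145, stood at 12.29 and 12.27 in Nxn-null and 12.25 and 12.29 in wild-type RNA at E11.5, and at 12.16 and 12.40 in Nxn-null and 12.25 and 12.49 in wild-type RNA at E9.5. All 4 groups overlapped. The ratio was 0.04 and -0.02 at E11.5 and -0.09 and -0.08 at E9.5 (means 0.01 ± 0.05 and -0.09 ± 0.01, SD, n = 2 arrays; limma adjusted p = 0.957 and 0.365). Its second probe, A_51_P420400, had mean ratios of 0.02 and -0.08, but these averaged 0.25 and -0.22 at E11.5 and 0.15 and -0.30 at E9.5. The stage change of Lef1 was within 0.10 of 0 on both probes in both genotypes.

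Sp5, a zinc-finger factor that is a direct target of beta-catenin and acts on other targets in turn, fell in both genotypes. Its only probe, A_51_P404193, had 9.47 and 9.49 in Nxn-null and 9.23 and 9.38 in wild-type RNA at E11.5, and 10.25 and 10.19 in Nxn-null and 10.24 and 10.45 in wild-type RNA at E9.5. The stages did not overlap in either genotype, and at E11.5 both Nxn-null values lay above both wild-type values. The stage change was -0.74 ± 0.07 in Nxn-null RNA and -1.04 ± 0.07 in wild-type RNA (SE; limma adjusted p = 0.000182 and 3.64e-05). The genotype ratio was 0.24 and 0.11 at E11.5 and 0.01 and -0.26 at E9.5. Neither mean passed (0.18 and -0.12, limma adjusted p = 0.111 and 0.185), while their difference of 0.30 ± 0.09 did (adjusted p = 0.0371), so that Sp5 was less reduced in Nxn-null than in wild-type RNA. That call was lost in 10 of 13 alternatives, with differences of 0.17 to 0.44 and adjusted p of 0.00868 to 1.0.

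The promoters of Sp5 and Dkk1 are shown because both genes fell between the stages and both carry more than 1 copy of the TCF/LEF core. In all, 4 forms of 7 bases were searched on both strands, namely CTTTGAA and CTTTGAT and also CTTTGTA and CTTTGTT, in RefSeq promoter windows of 250 bases before to 50 after each annotated start (GRCm38.p6). The bases before the start are printed 5′ to 3′ on the gene's strand, with the forms in capitals, for Sp5 at chr2:70474673-70474922 (plus strand) and Dkk1 at chr19:30549497-30549746 (minus strand).
Sp5: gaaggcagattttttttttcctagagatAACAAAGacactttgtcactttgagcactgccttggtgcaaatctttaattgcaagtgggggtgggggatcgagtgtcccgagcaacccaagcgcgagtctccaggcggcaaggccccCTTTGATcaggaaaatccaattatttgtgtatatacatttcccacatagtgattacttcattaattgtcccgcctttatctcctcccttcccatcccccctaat
Dkk1: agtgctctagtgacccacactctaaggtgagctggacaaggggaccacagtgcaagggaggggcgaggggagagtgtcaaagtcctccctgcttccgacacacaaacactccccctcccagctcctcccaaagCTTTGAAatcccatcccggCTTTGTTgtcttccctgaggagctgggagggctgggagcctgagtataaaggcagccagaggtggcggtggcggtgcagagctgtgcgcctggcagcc
In Sp5 the forms begin at -222 (on the opposite strand) and -104 from the start, and in Dkk1 at -117 and -98. At least 1 form lies in 16.9% of all 32817 windows and at least 2 in 1.94%. Of the 9 members with a window, 3 held a form in any window (Sp5, Dkk1 and, at 1 of its 4 starts, Lef1), against 19.0% of all genes. The windows of Axin2, Tcf7, Nkd1, Wif1, Ephb2 and Ephb3 did not hold these letters, which says nothing of sites elsewhere, and no window of Apcdd1 was analysed here.

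Of the secreted antagonists, Dkk1 blocks the LRP co-receptors. Its brightest probe, A_51_P379069, differed far more between the dyes than between the genotypes. It had 10.17 and 9.72 in Nxn-null and 9.66 and 10.07 in wild-type RNA at E11.5, and 10.37 and 10.08 in Nxn-null and 9.85 and 10.58 in wild-type RNA at E9.5. The channel in Cy5 was the brighter on every array. The genotypes overlapped at each stage, and the stages overlapped in each genotype. The genotype ratio was 0.50 and -0.35 at E11.5 and 0.52 and -0.51 at E9.5, which averaged 0.08 ± 0.60 and 0.01 ± 0.72 (SD, n = 2 arrays). The other probe, A_52_P508391, showed no such swing, with ratios of -0.02 and 0.07 at E11.5 and -0.15 and -0.09 at E9.5 (limma adjusted p = 0.875 and 0.191). Both probes were lower at E11.5 than at E9.5. On the brightest the stage change was -0.28 ± 0.09 in Nxn-null and -0.35 ± 0.09 in wild-type RNA (SE; limma adjusted p = 0.0421 and 0.0163), and on the other -0.45 ± 0.08 and -0.60 ± 0.08 (adjusted p = 0.00388 and 0.00098). The levels of the other probe did not overlap between the stages, at 8.42 to 8.62 in Nxn-null and 8.43 to 8.55 in wild-type RNA at E11.5, and 8.95 to 8.97 and 9.05 to 9.12 at E9.5. With 1 array left out, which unbalances the dyes, the change on the brightest probe ranged from -0.50 to -0.05 in Nxn-null and from -0.71 to 0.02 in wild-type RNA. Over all alternatives the Nxn-null call on that probe was lost in 8 of 13 (adjusted p up to 0.910), and the wild-type call was lost in 3 and turned in sign in 1 more.

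Wif1, which binds Wnt ligands outside the cell, showed the largest stage change. Its probe, A_51_P484526, had 9.41 and 9.19 in Nxn-null and 9.31 and 9.26 in wild-type RNA at E11.5, and 8.11 and 8.14 in Nxn-null and 7.75 and 8.02 in wild-type RNA at E9.5. The stages lay far apart in both genotypes. The change was 1.18 ± 0.10 in Nxn-null and 1.40 ± 0.10 in wild-type RNA (SE; limma adjusted p = 0.000154 and 5.91e-05), that is 2.26-fold and 2.65-fold higher at E11.5. With the Feature Extraction processed signals it was larger, at 1.97 and 2.24. The ratios were 0.10 and -0.07 at E11.5. At E9.5 both Nxn-null values lay above both wild-type values, with ratios of 0.36 and 0.12 and a mean of 0.24 ± 0.17 (SD, n = 2 arrays; limma adjusted p = 0.00957). The difference of -0.23 between the stages did not pass (adjusted p = 0.119). The E9.5 call was lost in 7 of 13 alternatives, without reversing, with ratios of 0.12 to 0.36 and an adjusted p of up to 0.805.

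Among the feedback inhibitors that act in or on the receiving cell, Axin2 is the scaffold of the complex that destroys beta-catenin. Its probe, A_52_P54176, had 10.15 and 10.33 in Nxn-null and 10.12 and 10.18 in wild-type RNA at E11.5, and 10.57 and 10.46 in Nxn-null and 10.50 and 10.63 in wild-type RNA at E9.5. The genotypes overlapped at both stages, and the stages did not overlap in either genotype. The stage change was -0.27 ± 0.08 in Nxn-null and -0.41 ± 0.08 in wild-type RNA (SE; limma adjusted p = 0.0300 and 0.00521), or 1.21-fold and 1.33-fold lower at E11.5. The Nxn-null call was lost in 6 of 13 alternatives (-0.18 to -0.37, adjusted p up to 0.346) and the wild-type call in 2 (-0.35 to -0.50, adjusted p up to 0.0607). The genotype ratio was 0.03 and 0.15 at E11.5 and 0.07 and -0.17 at E9.5 (limma adjusted p = 0.562 and 0.664). Across the 8 channel levels, the genes most correlated with Axin2 were Piwil4 (Pearson r = 0.986), Mitd1 (0.983) and Fam102b (0.980). The 8 points share 4 arrays, 2 dyes and 2 stages, so these values only describe the channels.

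Nkd1 encodes an antagonist that binds Dishevelled. Its probe, A_51_P124285, had 12.69 and 12.52 in Nxn-null and 12.26 and 12.46 in wild-type RNA at E11.5, and 12.65 and 12.49 in Nxn-null and 12.32 and 12.78 in wild-type RNA at E9.5. Only at E11.5 did the genotypes not overlap. The ratio was 0.43 and 0.06 at E11.5 and 0.33 and -0.29 at E9.5, with a mean at E11.5 of 0.24 ± 0.26 (SD, n = 2 arrays; limma adjusted p = 0.0275), or 1.18-fold. The array with Nxn-null RNA in Cy5 gave the higher ratio at both stages. The call at E11.5 was lost in 10 of 13 alternatives, with ratios of 0.06 to 0.43 and adjusted p of 0.0136 to 1.0. Its stage change was 0.04 in Nxn-null and -0.18 in wild-type RNA (limma adjusted p = 0.724 and 0.0880).

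Apcdd1, a membrane glycoprotein that inhibits Wnt signalling at the cell surface, was the member whose ratio differed most between the stages. Its brightest probe, A_51_P175018, had 13.24 and 13.21 in Nxn-null and 13.40 and 13.43 in wild-type RNA at E11.5, and 13.06 and 13.06 in Nxn-null and 12.74 and 12.87 in wild-type RNA at E9.5. No groups overlapped, and Nxn-null RNA was the lower at E11.5 and the higher at E9.5. The ratio was -0.16 and -0.23 at E11.5, a mean of -0.19 ± 0.05 (SD, n = 2 arrays; limma adjusted p = 0.0728), and 0.32 and 0.19 at E9.5, a mean of 0.26 ± 0.09 (adjusted p = 0.00601). The difference between the stages was -0.45 ± 0.09 (SE; adjusted p = 0.00199). Put as stage changes, the gene stood at 0.16 ± 0.07 in Nxn-null RNA (adjusted p = 0.0775) and was higher at E11.5 by 0.61 ± 0.07 in wild-type RNA (adjusted p = 0.00032). The other probe, A_52_P642726, named from another accession and well above background in 5 of 8 channels, did not show this, with mean ratios of 0.09 and 0.06 and stage changes of 0.26 in Nxn-null and 0.23 in wild-type RNA. The difference between the stages was lost in 8 of 13 alternatives, with values of -0.21 to -0.52 and an adjusted p of up to 1.0, among them the mean of both probes (-0.21, adjusted p = 0.134). The call at E9.5 was lost in 8 too, with ratios of 0.16 to 0.32. With the processed signals the wild-type stage change was 0.36.

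**Figure D3:**
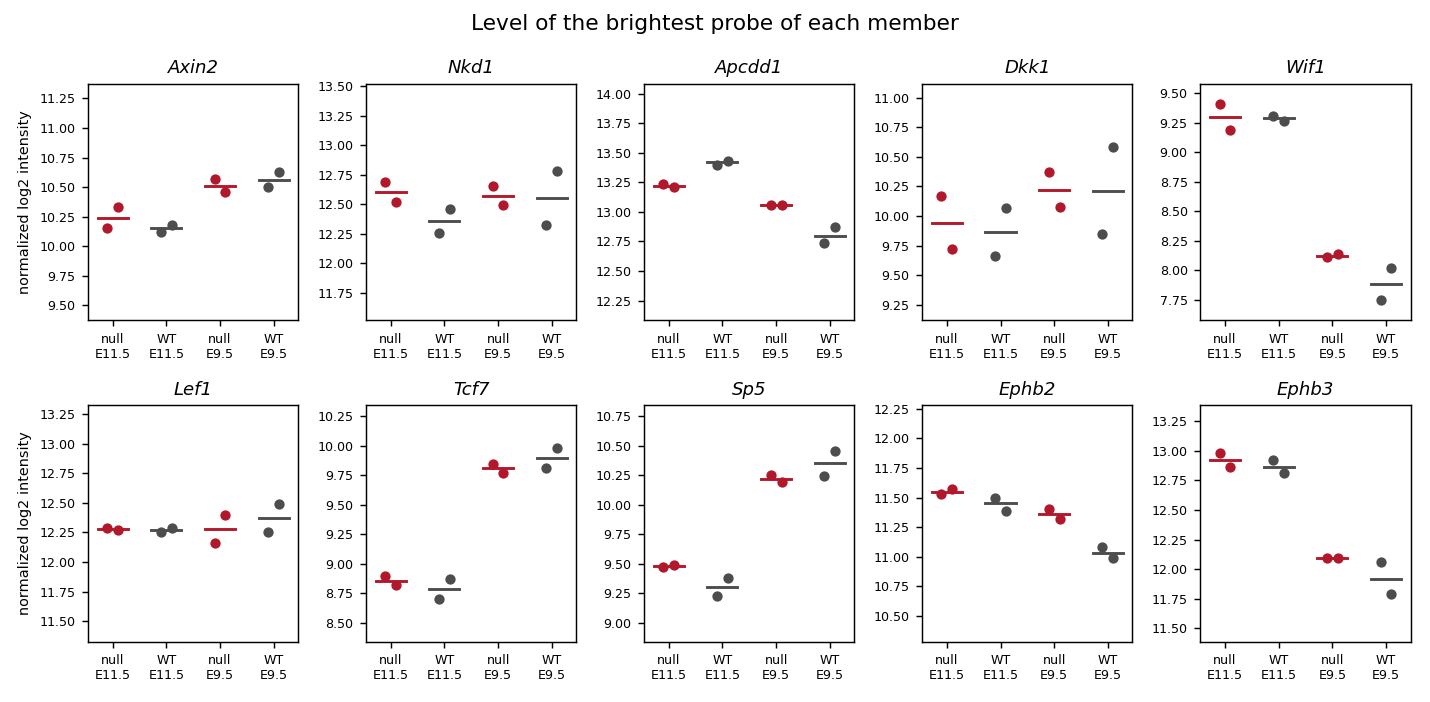
Normalized log2 intensity (vertical axis, each panel spanning the same range) of the brightest probe of each member in Nxn-null (red) and wild-type (grey) RNA at E11.5 and E9.5; dots are the 2 arrays and bars their mean. Wif1 and Ephb3 stand higher and Tcf7 and Sp5 lower at E11.5 in both genotypes, and in Apcdd1 both Nxn-null values lie below the wild-type ones at E11.5 and above them at E9.5.

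The Eph receptors EphB2 and EphB3, receptor tyrosine kinases for ephrin-B ligands that sort cells at tissue boundaries, are beta-catenin targets in the intestine. Ephb3 rose in both genotypes. Its probe, A_51_P334199, had 12.98 and 12.86 in Nxn-null and 12.92 and 12.81 in wild-type RNA at E11.5, and 12.09 and 12.09 in Nxn-null and 12.06 and 11.79 in wild-type RNA at E9.5. The change was 0.83 ± 0.07 in Nxn-null and 0.94 ± 0.07 in wild-type RNA (SE; limma adjusted p = 0.000191 and 9.15e-05). The genotype ratio was 0.06 and 0.04 at E11.5 and 0.03 and 0.30 at E9.5, and neither mean passed the test (limma adjusted p = 0.756 and 0.0923).

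Ephb2 was higher in Nxn-null RNA at E9.5 on 1 of its 2 probes. The brightest, A_52_P315155, had 11.531 and 11.570 in Nxn-null and 11.504 and 11.391 in wild-type RNA at E11.5, and 11.40 and 11.32 in Nxn-null and 11.08 and 10.99 in wild-type RNA at E9.5. The genotypes did not overlap at either stage. The ratio was 0.03 and 0.18 at E11.5 (limma adjusted p = 0.429), and 0.32 and 0.33 at E9.5, a mean of 0.32 ± 0.01 (SD, n = 2 arrays; adjusted p = 0.00101), the largest of the members and the one on which the dye-swapped arrays differed least. The other probe, A_51_P163714, had ratios of 0.03 and 0.13 at E11.5, and of 0.11 and 0.01 at E9.5 (limma adjusted p = 0.584 and 0.543). The E9.5 call was lost in 7 of 13 alternatives, with ratios of 0.19 to 0.40 and an adjusted p of up to 0.693, and the difference of -0.22 between the stages did not pass (adjusted p = 0.137). Both probes were higher at E11.5, by 0.19 and 0.31 in Nxn-null RNA (limma adjusted p = 0.0468 and 0.00809) and by 0.41 and 0.29 in wild-type RNA (adjusted p = 0.00188 and 0.00910). On the brightest probe the Nxn-null call was lost in 8 of 13 alternatives (0.07 to 0.25, adjusted p up to 0.490) and the wild-type call in 1.

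The probes of a member gave the same sign of the mean ratio in 4 of 5 genes at E11.5 and in 3 of 5 at E9.5, and the same sign of the stage change in 4 of 5 genes in Nxn-null and 5 of 5 in wild-type RNA. The gap between dye-swapped arrays exceeded the absolute mean ratio in 7 of the 10 members at E11.5 and in 7 at E9.5. Its size repeated between the stages for the probes where it was widest. For Dkk1 the array with Nxn-null RNA in Cy5 lay 0.85 above the other at E11.5 and 1.02 at E9.5, for Nkd1 0.37 and 0.62, and for the second Lef1 probe 0.48 and 0.46. The median absolute gap over all probes was 0.16 at E11.5 and 0.18 at E9.5.

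**Figure D4:**
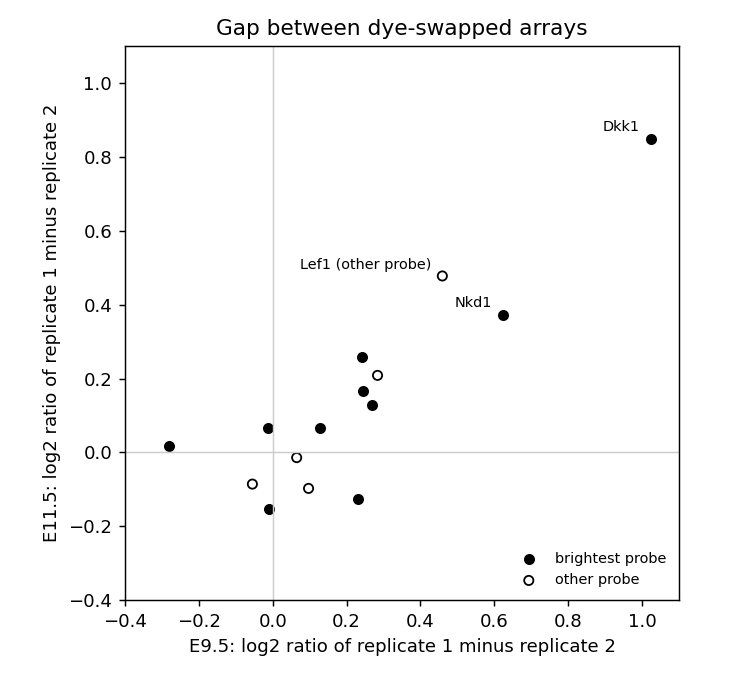
Log2 ratio on replicate 1 (Nxn-null RNA in Cy5) minus that on replicate 2 (Nxn-null RNA in Cy3) at E11.5 (vertical axis) against E9.5 (horizontal axis) for the 15 member probes; filled points are brightest probes and open points other probes. Dkk1 lies at 0.85 and 1.02, and Nkd1 and the second Lef1 probe also lie well to the upper right.

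Other genes around the pathway were counted the same way on their brightest probes. Over all probes, 3.13% were called higher and 5.25% lower at E11.5, and 8.69% higher and 13.3% lower at E9.5. Of 23 measured further Wnt targets (26 listed), 0 were higher and 1 lower at E11.5, and 2 were higher and 5 lower at E9.5, with median ratios of -0.03 and -0.02. They included Sox9, a chondrogenic and progenitor factor (-0.26 at E11.5 and 0.29 at E9.5), the adhesion receptor Cd44 (0.05 and -0.27) and the BMP pseudoreceptor Bambi (-0.01 and -0.25). Another Sox9 probe stood at -0.096 and 0.23, and the other kept Cd44 probe at -0.01 and -0.18. Among 11 measured targets of posterior mesoderm (13 listed), 2 were higher and 0 lower at E11.5, and 1 was higher and 4 lower at E9.5, where the medians were 0.06 and -0.15. The 4 lower at E9.5 were Cdx2 (-2.27), Tbx6 (-2.11), Hoxd13 (-1.38, against -0.22 on its other probe) and T (-0.77). Cdx2 and T were each well above background in 3 of 4 channels at each stage, so the size of their folds is uncertain. Their values stood in the same RNA in which no member's mean ratio was larger than 0.32 on the log2 scale.

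Of 15 measured paralogues and partners of the members (16 listed), 0 were called at E11.5 and 1 at E9.5, the ephrin ligand gene Efnb1 (0.01 at E11.5 and 0.21 at E9.5). Between the stages, 10 of the 15 were higher and 1 lower at E11.5 in each genotype, with medians of 0.32 in Nxn-null and 0.28 in wild-type RNA. Of all probes, 23.6% were called higher and 26.5% lower in Nxn-null RNA, and 24.0% and 30.2% in wild-type RNA. Sp8, a relative of Sp5, was the lower one (-0.99 in Nxn-null and -1.17 in wild-type RNA), and Dkk2 was higher (0.98 and 1.17). Of 17 measured core components (18 listed), 1 was higher and 2 lower at E11.5 and 1 higher and 1 lower at E9.5. The co-repressor gene Tle1 was higher on its brightest probe (1.07 and 0.20) and stood at -0.12 and -0.08 on another. The co-receptor gene Lrp5 was lower (-0.22 and -0.42). Tle3 was lower at E11.5 on its brightest probe (-0.24, against 0.13 at E9.5) and stood at 0.11 and 0.03 on its other probe.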

How the data were processed

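Spot intensities of both channels, with local backgrounds, are on a linear scale as deposited by the authors. They were written by Agilent Feature Extraction 9.1.3.1 per the file headers, although version 9.5.3.1 is the one in the submitters' processing notes. A log10 ratio of red over green stands beside them, per the file headers. The deposited value table of the series is that ratio on the log10 scale turned to Nxn-null over wild type: 99.995% to 100% of 40929 values equalled log10 of the processed signals within 1e-04, and its column medians were -0.0347 and 0.021 for E11.5 replicates 1 and 2, and -0.0136 and 0.0408 for E9.5.

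In limma 3.58.1 (R 4.3.3, data.table package 1.17.8, jsonlite 2.0.0), mean signals were corrected by normexp (offset 50) and loess was run within arrays with control and outlier spots at weight 0. Single channels were then scaled by Aquantile. Of 41174 gene probes, 302 with an outlier mark were left out and 24985 kept. Symbols came from RefSeq GRCm38.p6 by accession (22951 probes), current symbol (6659) or older symbol (3109), and 8455 probes kept the name in the files. The ratio fit had a dye term and 1 residual degree of freedom (prior 16.8), the fit shared by stages 1 (prior 3.02) and the stage fit of same-dye differences 2 (prior 5.1). With so few residual degrees of freedom each SE is drawn towards the spread of all probes. Whatever shifts an array's 2 channels together stays in the error of the stage fit. That fit takes the Nxn-null and wild-type differences of the same arrays as independent, although they share those arrays. All p-values are two-sided and Benjamini-Hochberg adjusted over all kept probes. The fits were tested on simulated data. Figures used matplotlib 3.10.9, pandas 2.3.3 and numpy 2.4.6 under Python 3.11.15.

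The brightest kept probe stands for a gene. For the members the others are given beside it, and for genes of the other lists at most 1 other probe is given. From each other Wnt list, up to 4 genes called at either stage are named, largest ratio first; 1 gene that this rule names is not reported here. The members and lists were chosen with earlier results of these data known. Precision is limited by having 4 arrays. Alternatives were another offset, other filters on dim probes, other probe choices, other normalizations, the dye term, eBayes settings and leaving out each array.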

Additional observations from a re-analysis of the deposited data

Results flagged for a closer look

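Among the members, the other Wnt genes named by rule and Nxn, the genotype ratio differed between the stages for the 11 genes given here by limma's test of the difference itself, E11.5 minus E9.5; over all genes 2867 probes passed that test. For Apcdd1 the difference was -0.45 (ratio -0.19 at E11.5 and 0.26 at E9.5, adjusted p = 0.00199), and for Sp5 it was 0.30 (0.18 and -0.12, adjusted p = 0.0371). It was 2.11 for Cdx2 (-0.16 and -2.27), 2.16 for Tbx6 (0.05 and -2.11), 1.53 for Hoxd13 (0.16 and -1.38) and 0.83 for T (0.07 and -0.77). It was -0.55 for Sox9 (-0.26 and 0.29), 0.33 for Cd44 (0.05 and -0.27), 0.87 for Tle1 (1.07 and 0.20) and -0.37 for Tle3 (-0.24 and 0.13). For Nxn itself it was -0.34 (-1.33 and -0.99, adjusted p = 0.0239). All of these values are from brightest probes. Other probes had ratios of -0.12 and -0.08 for Tle1, 0.11 and 0.03 for Tle3, and 0.06 and -0.22 for Hoxd13. They had -0.096 and 0.23 for Sox9, and -0.01 and -0.18 for Cd44. The difference was 0.03 on the other Apcdd1 probe and -0.34 on the other Nxn probe. With the 2 arrays of a stage, no single array could be tested as standing apart.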

How the results depend on the processing

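The stage calls of Wif1, Ephb3, Tcf7 and Sp5 in both genotypes, and of Apcdd1 in wild-type RNA, kept their direction and their side of the threshold under every alternative run. The genotype calls of single members kept their direction but not their side of the threshold. Members called at E11.5 numbered 1 in the reported fit, 3 with the trend and robust settings of eBayes, 2 when probes had to be well above background in both genotypes on all arrays, and 0 with a normexp offset of 10, with no filter on dim probes, with the Feature Extraction log ratio, with median centring, with no dye term and with the mean of all probes. Members called at E9.5 numbered 3, but 2 with the mean of all probes, and 0 with the log ratio, median centring and no dye term. With the mean of all probes the E9.5 ratio of Apcdd1 was 0.16 (limma adjusted p = 0.0694). Members whose ratio differed between the stages numbered 2, but 1 with the offset of 10 and with no filter, and 0 with the log ratio, median centring, no dye term and the mean of all probes. Nkd1 and Sp5 have 1 probe, so in the fit to means of probes their values stayed as they were and only their adjusted p moved, to 0.0605 for Nkd1 at E11.5 and 0.0508 for the Sp5 difference. Leaving out 1 array both drops the dye term and leaves its stage with 1 array, so in these 3 comparisons the effects of the 2 cannot be told apart. The number of stage calls in Nxn-null RNA was 7, and 4 with no filter, with the processed signals and without any 1 array; in wild-type RNA it was 8, and 5 to 9 without 1 array.

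Over all 24985 probes, 2094 were called at E11.5, 5495 at E9.5 and 2867 for the difference between the stages. These counts were 48, 1537 and 302 with the log ratio, 284, 887 and 478 with median centring, 50, 548 and 174 with no dye term, and 17 to 219, 343 to 582 and 106 to 305 with 1 array left out. The effect shared by the stages gave 0 calls, and 77 with the 4 arrays taken as separate measurements. Stage calls numbered 12504 in Nxn-null and 13539 in wild-type RNA, and 4987 to 7473 and 6338 to 8398 with 1 array left out. Leaving out an array removes its dye partner, and no other cause was tested.

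The only called value that changed sign was the Dkk1 stage change in wild-type RNA, which ranged from -0.71 to 0.019 with 1 array left out. Values that were not called and changed sign were all small or dye-dependent. With other settings they were the ratio of Tcf7 at E11.5 (-0.022 with the log ratio), Axin2 at E9.5 (0.022 with median centring) and Dkk1 at E9.5 (-0.057 with the mean of all probes). The shared ratios were 0.070 for Lef1 and 0.063 for Tcf7 with median centring, and -0.0022 for Dkk1 and 0.024 for Tcf7 with the mean of all probes. The stage change in Nxn-null RNA was 8.9e-05, 0.0095 and 0.027 for Lef1 (offset of 10, quantile normalization and mean of all probes), -0.065 for Apcdd1 and -0.19 for Nkd1 (processed signals).

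With 1 array left out, the ratio at E11.5 ranged from -0.023 to 0.044 for Lef1, -0.35 to 0.50 for Dkk1, -0.056 to 0.20 for Tcf7 and -0.069 to 0.096 for Wif1. At E9.5 it ranged from -0.17 to 0.066 for Axin2, -0.51 to 0.52 for Dkk1, -0.29 to 0.33 for Nkd1, -0.26 to 0.010 for Sp5 and -0.20 to 0.038 for Tcf7. The difference between the stages ranged from -0.44 to 0.58 for Dkk1, -0.25 to 0.027 for Ephb3 and -0.092 to 0.53 for Nkd1. The shared ratio ranged from -0.038 to 0.077 for Axin2, -0.21 to 0.30 for Dkk1, -0.024 to 0.29 for Nkd1, -0.041 to 0.094 for Sp5 and -0.070 to 0.059 for Tcf7. The stage change ranged from -0.12 to 0.12 for Lef1 and -0.050 to 0.12 for Nkd1 in Nxn-null RNA, and from -0.21 to 0.019 and -0.41 to 0.047 in wild-type RNA. The labels carry no replicate numbers, so no replicate block was fitted; replicates 1 and 2 here name the dye orientations, the genotypes are paired within each array and the stages were compared within a dye. The second Apcdd1 and Tcf7 probes were not well above background in every channel, which limits them.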
